A study of Mus musculus with 8 samples.

Results

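Heat shock proteins are the chaperones that bind unfolded or aggregating proteins, and the 10 genes described here were picked by name, as the rows of *Hspa1a*, *Hspa1b*, *Hspa8*, *Hsph1*, *Dnajb1*, *Hsp90aa1*, *Hsp90ab1*, *Hspb1*, *Cryab* and *Hspd1* among the 54532 gene rows of the table. The cells were MICFs, cardiac fibroblasts taken from the infarcted region of C57BL/6 mouse hearts. All of them carried doxycycline-inducible lentiviruses for MGT (*Mef2c*, *Gata4* and *Tbx5* on 1 construct), *Myocd*, *Sall4* and eGFP, a set that the labels call MGTMyoS overexpression. For the *in vivo* samples the cells were injected into the left ventricle of mice with a fresh infarct that drank doxycycline and received tacrolimus, methylprednisolone and mycophenolate mofetil daily. Hearts were then digested with enzymes and eGFP+ cells were sorted after 1 or 2 weeks (Days 7 and 14). For the *in vitro* samples a portion of the same infected cells stayed in culture with doxycycline and was sorted by the same marker at the same times. The paper's protocol for reprogramming in culture used a medium that also held the compounds SB431542 and baricitinib. Each of the 4 groups had 2 libraries, giving 8 in all, and no library without the reprogramming factors was analysed here. The place of the cells cannot be told apart from the host's drugs, the medium with its compounds or the digestion of the heart. Each went with only one of the arms. Which animals or wells gave a replicate is not stated, so p-values measure the spread between these libraries, which may be technical.

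Expression is given as FPKM, fragments scaled to gene length and library size, so that levels can be compared between genes. Each library held 12304242 to 14546904 fragments on genes. All 10 genes passed the filter on low values, a minimum FPKM of 0.5 reached by 2 or more libraries, as did 15708 genes in all. The least abundant value among them, *Hspa1a* in an *in vitro* library at 1 week, rested on 127 fragments. The sorted cells had the fibroblast marker *Col1a1*, a fibrillar collagen chain, at 2762 to 4709 FPKM *in vivo* and at 363 to 862 FPKM *in vitro*, with none of the 8 fibroblast markers at 0 in any library. Not all of these markers followed *Col1a1*. At 1 week *Thy1* had a mean of 23.4 FPKM *in vivo* against 39.4 FPKM *in vitro*, and *Pdgfra* 20.8 against 20.0 FPKM. Macrophage and endothelial markers were also measured in every library. *Lyz2*, a lysozyme of macrophages, was at 975 to 1453 FPKM *in vivo* and 2921 to 4014 FPKM *in vitro*. The macrophage markers did not all go this way. *C1qa* had a mean of 466 FPKM *in vivo* and 469 FPKM *in vitro* at 1 week, and *Cd163* 4.71 against 1.58 FPKM at 2 weeks. In bulk RNA, fewer cells of a type and less RNA per cell cannot be told apart.

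Chaperones work as a relay. HSP40 proteins bring clients to HSP70, which holds them in an ATP-driven cycle, exchange factors such as HSP110 reset that cycle, HSP90 matures a narrower set of clients including kinases and steroid receptors, small heat shock proteins hold unfolding proteins without ATP, and HSP60 folds proteins inside mitochondria. Some members are made all the time and others are induced by heat, oxidative stress or ischaemia. Induction runs mainly through the transcription factor HSF1, which binds inverted repeats of a short GAA unit called heat shock elements. In heart muscle the small heat shock proteins are abundant and can bind to the contractile apparatus.

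The *Hspa1a* and *Hspa1b* genes encode nearly the same inducible HSP70, and the sequence that both carry upstream is shown because the largest differences fell on this pair. Both genes have 1 exon and stand 9951 bases apart on the minus strand of chromosome 17 (GRCm38), *Hspa1a* at chr17:34969190-34972156 and *Hspa1b* at chr17:34956436-34959238. The 250 bases before the 2 starts were 98.8% identical, the coding parts 99.58% and the 5′ untranslated parts 98.7%, whereas the 3′ untranslated parts were 57.94% identical. The stretch from 150 to 51 bases before each start, which overlaps no annotated exon, is given from RefSeq (GRCm38.p6), with an element of 2 inverted units in capitals, at chr17:34972207-34972306 and chr17:34959289-34959388 on the minus strand:
Hspa1a: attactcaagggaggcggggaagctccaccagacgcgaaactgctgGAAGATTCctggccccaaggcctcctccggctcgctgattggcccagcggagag
Hspa1b: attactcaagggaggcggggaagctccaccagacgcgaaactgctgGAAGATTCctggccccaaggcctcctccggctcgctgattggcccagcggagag
The 100 bases are the same in both genes, and the element lies 104 to 97 bases before the start in each. Of the 100-base windows of the *Hspa1a* transcript, 47.07% also occur letter for letter in *Hspa1b*, so fragments from the shared part may have been assigned to either gene and the split between the genes is uncertain. Their sum is therefore given as well.

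Elements were searched as GAANNTTC or TTCNNGAA (2 units, each string reading the same on both strands) and as GAANNTTCNNGAA or TTCNNGAANNTTC (3 units, both strands, each holding a pair of the shorter strings) in windows of 250 bases before to 50 after a RefSeq start. At least 1 element of 2 units was present in 15.056% and one of 3 units in 0.603% of all 32851 windows. Windows were given for 6 of the 10 genes, *Hspa1a*, *Hspa1b*, *Hsph1*, *Dnajb1*, *Hspb1* and *Hspd1*. An element of 2 units was found in at least 1 window of 5 of the 6 genes, *Dnajb1* being without these letters, and one of 3 units in *Hsph1* and *Hspd1*. Counted per gene in the same way, with some genes having several windows, 16.973% of 27025 genes held the shorter and 0.662% the longer form. The following 30 bases around the element are shown to compare a 2-unit with the 3-unit and longer forms, with the units and the letters between them in capitals:
Hspb1: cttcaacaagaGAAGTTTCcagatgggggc
Hsph1: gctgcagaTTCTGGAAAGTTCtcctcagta
Hspd1: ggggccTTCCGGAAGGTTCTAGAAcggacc
The *Hspb1* window and each *Hsph1* window held 2 separate matches, and only the longest, or the first of equal length, is shown. The *Hspb1* element shown is at chr5:135887791-135887820 on the plus strand, before the gene. The *Hsph1* element is at chr5:149636279-149636308 on the minus strand and lies 16 to 28 bases after one of the gene's RefSeq starts. The *Hspd1* element is at chr1:55088053-55088082 on the minus strand, where it also stands 89 to 72 bases before the start of *Hspe1*, which encodes HSP10 and is read in the other direction. A match of letters is a description and shows no binding.

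The question put to these libraries was how the same factor-carrying cells differ between the infarcted heart and culture. A gene was counted as higher or lower when its Benjamini-Hochberg adjusted p in limma was under 0.01 and its log2 fold change of FPKM + 0.1 was past 1 in size, that is more than 2-fold. At 1 week, 4 of the 10 genes were higher *in vivo* (*Hspa1a*, *Hspa1b*, *Hsph1* and *Hspb1*) and 0 were lower, where 7.79% of all tested genes were higher and 5.07% were lower. At 2 weeks 3 were higher (*Hspa1a*, *Hspa1b* and *Hsph1*) and 1, *Cryab*, was lower, where 9.02% of all tested genes were higher and 8.05% lower. The median log2 fold change was 0.83 over the 10 genes and -0.0058 over all tested genes at 1 week, and 0.54 against -0.0034 at 2 weeks. With no limit on the fold, adjusted p alone placed 7 genes higher and 1 lower at 1 week, against 14.7% higher and 12.4% lower of all genes. For 2 weeks it placed 6 higher and 1 lower, against 16.9% and 17.3%. These counts by p alone depended on the scaling. Under quantile normalization they were 5 and 2 at 1 week, with *Hsp90ab1* among the lower genes, and 4 and 1 at 2 weeks. Of all genes, 13.3% were then higher and 15.3% lower at 1 week, and 16.3% and 17.5% at 2 weeks. In unscaled libraries they were 6 and 2 at 1 week and 3 and 2 at 2 weeks, with *Hspd1* among the lower genes. Of all genes, 8.93% were then higher and 29.9% lower at 1 week, and 10.4% and 32.2% at 2 weeks. The deposited FPKM were scaled between libraries, and without that scaling the median of all genes moved to -0.34 at 1 week and -0.32 at 2 weeks. Of all genes called, 60.6% were higher *in vivo* at 1 week and 52.8% at 2 weeks, and 36.8% and 33.1% in unscaled libraries. The 10 genes then gave 3 higher and 1 lower at each week, as they did under quantile normalization, because *Hspb1* fell below and *Cryab* passed the fold limit at 1 week.

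**Figure D1:**
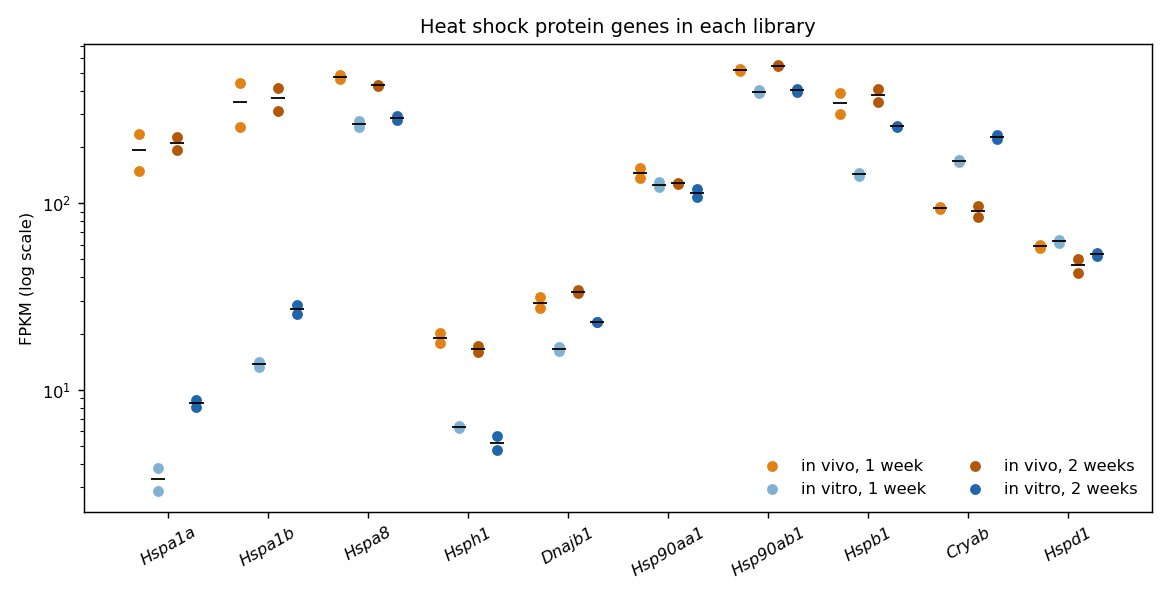
FPKM of the 10 genes on a log axis, with 1 point per library, 2 libraries per group and a black bar at the group mean. *Hspa1a* and *Hspa1b* are the genes with the widest gap, at 150 to 444 FPKM in the *in vivo* and 2.87 to 28.5 FPKM in the *in vitro* libraries, and *Cryab* lies the other way.

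*Hspa1a* (ENSMUSG00000091971) was at 237 and 150 FPKM in the *in vivo* libraries at 1 week and at 3.79 and 2.87 FPKM in the *in vitro* libraries. At 2 weeks the *in vivo* libraries were at 194 and 227 FPKM and the *in vitro* libraries at 8.11 and 8.85 FPKM. The lowest *in vivo* value was far above the highest *in vitro* value, and the *in vivo* pair at 1 week was the more scattered one. The log2 fold change was 5.79 (SE 0.22, 55.5-fold, adjusted p = 4.7e-06) at 1 week and 4.61 (SE 0.22, 24.5-fold, adjusted p = 9.8e-06) at 2 weeks.

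*Hspa1b* (ENSMUSG00000090877) followed at a higher level. It was at 444 and 256 FPKM *in vivo* against 13.3 and 14.1 FPKM *in vitro* at 1 week, and at 314 and 416 FPKM *in vivo* against 28.5 and 25.6 FPKM *in vitro* at 2 weeks. Again the arms did not overlap at either week. The log2 fold change was 4.61 (SE 0.25, 24.5-fold, adjusted p = 2e-05) at 1 week and 3.74 (SE 0.25, 13.4-fold, adjusted p = 3.8e-05) at 2 weeks. The sum of both genes depends little on the split between them, as their lengths of 2967 and 2803 bases are close. It would lack any fragment dropped for matching both. This sum was 681 and 406 FPKM *in vivo* and 17.1 and 17.0 FPKM *in vitro* at 1 week, and 508 and 643 FPKM against 36.6 and 34.4 FPKM at 2 weeks. Taken as 1 gene, the pair was 30.7-fold higher *in vivo* at 1 week (log2 4.94, SE 0.23, adjusted p = 1e-05) and 16.1-fold at 2 weeks (log2 4.01, SE 0.23, adjusted p = 1.9e-05). The share of the sum given to *Hspa1b* was 61.9% to 65.2% in the *in vivo* and 74.3% to 83.1% in the *in vitro* libraries.

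*Hspa8* encodes HSC70, the constitutive form of HSP70 that serves folding and clathrin uncoating in unstressed cells. It was at 488 and 466 FPKM *in vivo* against 276 and 258 FPKM *in vitro* at 1 week, and at 432 and 428 FPKM against 280 and 293 FPKM at 2 weeks. No *in vitro* library reached the lowest *in vivo* one, but the log2 fold changes of 0.84 (SE 0.067, adjusted p = 0.00011) and 0.59 (SE 0.067, adjusted p = 0.00043) were below the fold limit. They shrank to 0.15 (adjusted p = 0.046) and 0.14 (adjusted p = 0.065) under quantile normalization and to 0.50 (adjusted p = 0.001) and 0.25 (adjusted p = 0.017) in unscaled libraries. The inducible pair summed to 0.871 to 1.5 times the FPKM of *Hspa8* in the *in vivo* libraries and to 0.0619 to 0.131 times in the *in vitro* libraries. The inducible HSP70 transcripts thus stood near the level of the constitutive one in the heart and far beneath it in culture.

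*Hsph1*, which encodes HSP110, the exchange factor that frees ADP from HSP70, was the third gene higher at both weeks. Its level was low, at 20.1 and 17.9 FPKM *in vivo* against 6.21 and 6.40 FPKM *in vitro* at 1 week and at 15.8 and 17.2 FPKM against 5.63 and 4.76 FPKM at 2 weeks. The log2 fold change was 1.57 (SE 0.10, 2.97-fold, adjusted p = 4.9e-05) at 1 week and 1.65 (SE 0.10, 3.14-fold, adjusted p = 3e-05) at 2 weeks. *Dnajb1*, an HSP40 that delivers clients to HSP70, was at 31.3 and 27.4 FPKM *in vivo* against 16.9 and 16.1 FPKM *in vitro* at 1 week, and at 34.1 and 32.9 FPKM against 23.1 and 23.0 FPKM at 2 weeks. Its arms did not overlap either, and its log2 fold changes of 0.82 (SE 0.077, adjusted p = 0.00022) and 0.54 (SE 0.077, adjusted p = 0.0012) were below the fold limit. In unscaled libraries they were 0.48 (adjusted p = 0.0025) and 0.21 (adjusted p = 0.071).

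The cytosolic HSP90 genes differed little. *Hsp90aa1*, the inducible form, was at 154 and 137 FPKM *in vivo* against 130 and 122 FPKM *in vitro* at 1 week, and at 129 and 127 FPKM against 108 and 119 FPKM at 2 weeks. Over both weeks the arms overlapped, and the log2 fold changes of 0.21 (95% interval 0.017 to 0.40, adjusted p = 0.078) and 0.18 (-0.013 to 0.37, adjusted p = 0.11) did not pass, and both took the other sign when the libraries were left unscaled or were quantile normalized. *Hsp90ab1*, the constitutive form, was at 512 and 523 FPKM *in vivo* against 405 and 390 FPKM *in vitro* at 1 week, and at 547 and 551 FPKM against 394 and 412 FPKM at 2 weeks. Its log2 fold changes of 0.38 (SE 0.063, adjusted p = 0.003) and 0.44 (SE 0.063, adjusted p = 0.0012) were below the fold limit. They turned to -0.26 (adjusted p = 0.0083) and 0.019 (adjusted p = 0.8) under quantile normalization, and were 0.040 (adjusted p = 0.63) and 0.11 (adjusted p = 0.18) in unscaled libraries. On the FPKM scale *Hsp90ab1* ranked first and *Hspa8* second among the 10 genes in all 8 libraries.

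The small heat shock proteins went in opposite directions. *Hspb1*, whose product HSP27 also protects actin filaments, was at 393 and 302 FPKM *in vivo* against 146 and 140 FPKM *in vitro* at 1 week, and at 348 and 412 FPKM against 257 and 260 FPKM at 2 weeks. The log2 fold change was 1.27 (SE 0.13, 2.41-fold, adjusted p = 4e-04) at 1 week and 0.55 (SE 0.13, 1.46-fold, adjusted p = 0.013) at 2 weeks, when it did not pass. The value at 1 week was 0.72 under quantile normalization and 0.92 without the scaling, both below the fold limit. Over 20 alternative analyses the log2 fold change of *Hspb1* at 2 weeks ranged from 0.075 to 0.67. *Cryab*, which encodes αB-crystallin, a chaperone of desmin and titin in heart muscle, was at 96.0 and 92.8 FPKM *in vivo* against 170 and 167 FPKM *in vitro* at 1 week. At 2 weeks it was at 84.6 and 96.2 FPKM *in vivo* against 222 and 232 FPKM *in vitro*, so all 4 *in vivo* libraries were below all 4 *in vitro* libraries. The log2 fold change was -0.84 (SE 0.074, adjusted p = 0.00017) at 1 week, below the fold limit, and -1.33 (SE 0.074, adjusted p = 1.7e-05) at 2 weeks, when the *in vitro* level was 2.51 times the *in vivo* level. At 1 week it was -1.19 under quantile normalization and -1.18 without the scaling, both past the limit. *Cryab* (chr9:50751325-50756636, plus strand) overlaps *Hspb2*, a further small heat shock protein of muscle on the minus strand, by 1030 bases, and since the counting is not stated to use strand, fragments there cannot be told apart.

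Markers of heart muscle were examined beside *Cryab*. At each week, and under each of the 3 scalings, 6 of 7 tested cardiomyocyte markers were lower *in vivo* and *Pln* was higher. The background for the deficit, over all 15708 tested genes on the deposited scaling, was 5.07% in the first week and 8.05% in the second. For the excess it was 7.79% and 9.02%. In unscaled libraries the deficit passed for 1558 and then 2087 of all tested genes, and under quantile normalization for 941 and then 1306. The summed FPKM of the 8 listed markers was 10.3 to 25.0 *in vivo*. *In vitro* this sum was 111 to 123 at 1 week and 557 to 631 at 2 weeks. *Actc1*, cardiac actin, went from 34.7 and 38.0 FPKM at 1 week to 324 and 288 FPKM at 2 weeks *in vitro*. *Myh7*, the slow cardiac myosin, was at 0 in 1 *in vivo* library and at most 0.69 FPKM in any library. The part of these markers in the *Cryab* result was not tested.

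*Hspd1*, the mitochondrial HSP60, was at 59.6 and 57.7 FPKM *in vivo* against 63.7 and 61.4 FPKM *in vitro* at 1 week, and at 42.3 and 50.6 FPKM against 52.0 and 54.3 FPKM at 2 weeks. Over both weeks the arms overlapped, and the log2 fold changes of -0.092 (95% interval -0.30 to 0.12, adjusted p = 0.44) and -0.20 (-0.41 to 0.0065, adjusted p = 0.097) did not pass. Its annotated extent overlaps that of *Hspe1* by 112 bases on the other strand. *Hspe1*, the partner lid of HSP60, had log2 fold changes of 0.31 (adjusted p = 0.027) and 0.0063 (adjusted p = 0.97), which did not pass either.

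**Figure D2:**
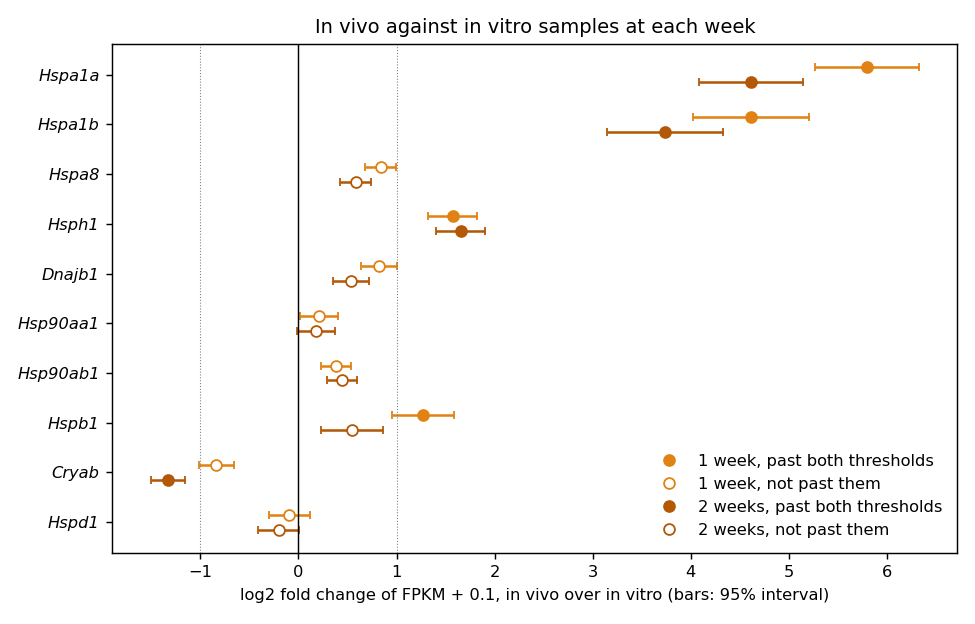
Log2 fold change of FPKM + 0.1, *in vivo* over *in vitro*, for each gene at 1 and 2 weeks, with 95% intervals from limma on 2 libraries per group. Filled points passed both thresholds (adjusted p under 0.01 and a size past 1, dotted lines), which the values 5.79 and 4.61 of *Hspa1a* exceed by far, while the HSP90 genes and *Hspd1* stay within 0.45 of 0.

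Taking both weeks, 7 of the 10 genes had all 4 *in vivo* libraries above all 4 *in vitro* libraries, where 20.5% of all tested genes did. *Cryab* alone among the 10 had them all below, where 20.0% of all tested genes did, and *Hsp90aa1* and *Hspd1* overlapped. These counts were made on the deposited, scaled FPKM only. The excess of *Hspa8* and *Hsp90ab1* was smaller or reversed under the other scalings, as given above. The order of the levels changed with the arm. *In vivo*, *Hspa1b* and *Hspb1* held the third and the fourth place after *Hsp90ab1* and *Hspa8*, in an order that differed between libraries, and *Hspa1a* came next. *In vitro*, *Cryab* and *Hspb1* held those places, with *Cryab* ahead at 1 week and *Hspb1* ahead at 2 weeks in both libraries of each group. *Hspa1a* was last of the 10 in both *in vitro* libraries at 1 week. Together the 10 genes took 0.542% to 0.653% of all fragments *in vivo* and 0.396% to 0.429% *in vitro*, and the *Hspa1a* and *Hspa1b* pair made up 20.0% to 28.0% of their summed FPKM *in vivo* and 1.39% to 2.65% *in vitro*.

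The weeks were compared within each arm and then between the arms, on the same libraries as above. *In vitro*, 1 of the 10 genes was higher at 2 weeks than at 1 week and 0 were lower, where 2.76% of all tested genes were higher and 1.05% lower. That gene was *Hspa1a*, with a log2 fold change of 1.34 (SE 0.22, 2.52-fold, adjusted p = 0.0074). This call did not hold in 12 of 21 alternative analyses, with an adjusted p of up to 0.054, and each *in vitro* library left out in turn ended it. *Hspa1b* had a log2 value of 0.97 (SE 0.25, adjusted p = 0.031) and did not pass. By adjusted p alone, 4 genes were higher at 2 weeks *in vitro* and 0 were lower, where 6.16% and 3.62% of all genes were. Besides *Hspa1a* these were *Hspb1* at 0.85 (SE 0.13, adjusted p = 0.006), *Dnajb1* at 0.48 (SE 0.077, adjusted p = 0.0064) and *Cryab* at 0.43 (SE 0.074, adjusted p = 0.008).

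*In vivo*, limma called 0 of the 10 genes between the weeks, with and without the fold limit, where 2.18% and 4.69% of all tested genes were called. The limma voom fit on the recovered fragments also called 0. An unadjusted p under 0.05, whose share over all genes was not counted, was reached by 2 genes. They were *Hspd1*, with a log2 fold change of -0.34 (SE 0.088, adjusted p = 0.042), and *Dnajb1*, with 0.19 (SE 0.077, adjusted p = 0.14). For *Hspa1a* the *in vivo* change was 0.16 with a 95% interval from -0.38 to 0.69, and for *Hspa1b* 0.10 with an interval from -0.49 to 0.69. These intervals reflect the scatter of the *in vivo* libraries, whose pair at 1 week stood at 237 and 150 FPKM for *Hspa1a*.

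The difference between the weeks in the *in vivo* against *in vitro* contrast was tested as an interaction. Of the 10 genes, limma called 0 with and without the fold limit, where 1.73% and 2.47% of all genes were called. The voom fit called 0, and 6 had an unadjusted p under 0.05. The share of all tested genes under this unadjusted p was not counted, so no excess can be read from the 6. All 6 had a value below 0. They were *Hspa1a* at -1.18 (SE 0.32, adjusted p = 0.063), *Hspa1b* at -0.87 (SE 0.35, adjusted p = 0.17), *Hspb1* at -0.72 (SE 0.19, adjusted p = 0.06), *Cryab* at -0.49 (SE 0.10, adjusted p = 0.033), *Dnajb1* at -0.29 (SE 0.11, adjusted p = 0.15) and *Hspa8* at -0.25 (SE 0.094, adjusted p = 0.14). A value below 0 stands for a smaller excess *in vivo* at 2 weeks, or for *Cryab* a larger deficit. Whether the differences of *Hspa1a*, *Hspb1* and *Cryab* changed between the weeks was not shown at these thresholds.

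**Figure D3:**
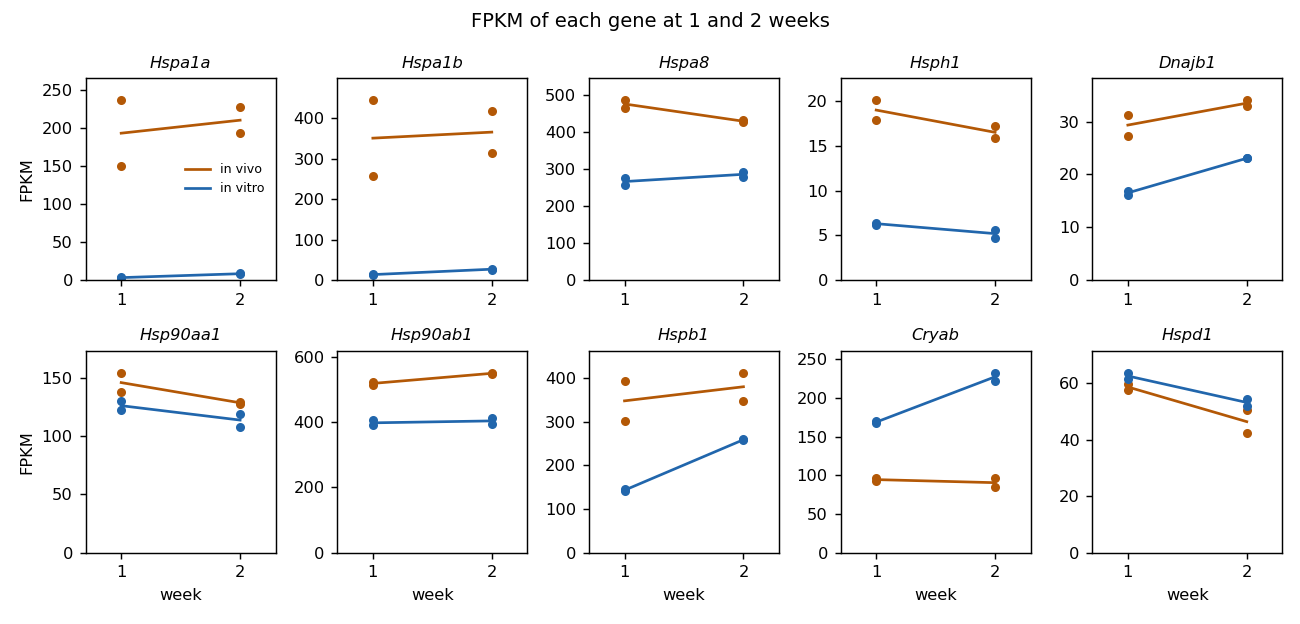
FPKM of each gene against the week, with 1 point per library and lines through the means of 2 libraries, on a linear axis from 0 that is scaled per gene. The *in vivo* lines of *Hspa1a* and *Hspa1b* are nearly level between widely spaced points, and *Hspb1* went *in vitro* from 146 and 140 to 257 and 260 FPKM.

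The rest of the chaperone network was examined with 7 gene lists, 118 further genes of which 105 were tested. At 1 week the *in vivo* excess passed the test for 4 of the 105 and the deficit for 3, with a median log2 fold change of -0.057. At 2 weeks these counts were 6 and 4, with a median of -0.065. Against the shares of all tested genes given above, these counts were 3.81% higher and 2.86% lower at 1 week and 5.71% and 3.81% at 2 weeks. In unscaled libraries the excess passed for 1 and the deficit for 6 at 1 week, and for 3 and 8 at 2 weeks. Of all 15708 tested genes, 906 and 1558 then passed at 1 week and 1032 and 2087 at 2 weeks. Quantile normalization gave 3 and 3 at 1 week and 5 and 4 at 2 weeks, where all genes gave 1139 and 941, and 1314 and 1306. Over both weeks 20 of the 105 genes lay wholly above and 23 wholly below the *in vitro* libraries, close to the 20.5% and 20.0% of all tested genes.

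Among the HSP70 relatives, the endoplasmic reticulum form *Hspa5* (BiP), a target of the unfolded protein response, was at 416 and 498 FPKM *in vivo* against 197 and 194 FPKM *in vitro* at 1 week. Its log2 fold change was 1.22 (adjusted p = 9e-05) at 1 week and 1.16 (adjusted p = 9e-05) at 2 weeks, and it fell under the fold limit under quantile normalization (0.56 and 0.73) and without the scaling (0.88 and 0.82). *Hspa9*, the mitochondrial HSP70, was lower *in vivo* at 1 week, at 43.2 and 43.7 FPKM against 105 and 96.6 FPKM (log2 -1.21, adjusted p = 2.2e-05), with a value of -0.84 at 2 weeks. *Hspa12a* was higher at 2 weeks (1.80). The remaining calls of this list, named after their values were seen, were *Hspa12b*, higher at 1 week (1.11), and *Hspa2*, higher at 2 weeks (1.03). Without the scaling *Hspa12b* at 0.78 and *Hspa2* at 0.70 were below the fold limit. Neither *Hsp90b1*, the HSP90 of the endoplasmic reticulum, at 0.69 and 0.91, nor *Trap1*, the mitochondrial one, at -0.18 and -0.066, passed both thresholds.

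Among the 42 other J-domain proteins tested, the family of HSP40, *Dnajc25* was higher at both weeks (1.08 and 1.31, but 0.75 and 0.98 without the scaling), *Dnajb3* was higher at 2 weeks (1.83) and *Dnajc12* lower at 2 weeks (-1.22). *Dnajb3* and *Dnajc12* were at or below 1.77 FPKM in every library. Of the 5 other small heat shock proteins tested, *Hspb7*, a muscle member that binds filamin C, was lower at both weeks, at 11.5 and 11.2 FPKM *in vivo* against 33.0 and 35.5 FPKM *in vitro* at 1 week (log2 -1.58) and -1.49 at 2 weeks. *Hspb2* was at -0.61 and -0.93 and did not pass. Among the 12 other chaperonins, *Bbs10* was lower at 2 weeks (-1.82) at no more than 1.33 FPKM.

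Of 30 cochaperones, *Fkbp5*, an immunophilin that binds HSP90 in steroid receptor complexes, was at 7.15 and 8.25 FPKM *in vivo* against 1.64 and 2.16 FPKM *in vitro* at 1 week (log2 1.97) and had a log2 fold change of 2.69 at 2 weeks. *Unc45b*, the chaperone that folds muscle myosin, was lower at both weeks (-2.02 and -4.35). It was at 0.848 to 1.06 FPKM in the *in vivo* libraries, 4.44 and 4.31 FPKM *in vitro* at 1 week and 20.2 and 19.8 FPKM *in vitro* at 2 weeks. Among the 105 genes it was also the only one called in the difference between the weeks (-2.33). The heat shock factor genes themselves were low. None of the 4 genes tested in their list, which also holds the binding protein gene *Hsbp1*, passed. *Hsf1* was at 5.90 and 6.14 FPKM *in vivo* against 4.81 and 4.23 FPKM *in vitro* at 1 week (log2 0.41, adjusted p = 0.017) and at log2 0.57 (adjusted p = 0.0035) at 2 weeks. *Hsf2* was at 0.15 and 0.083. The mRNA level of HSF1 does not measure its activity, which is set after translation.

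**Figure D4:**
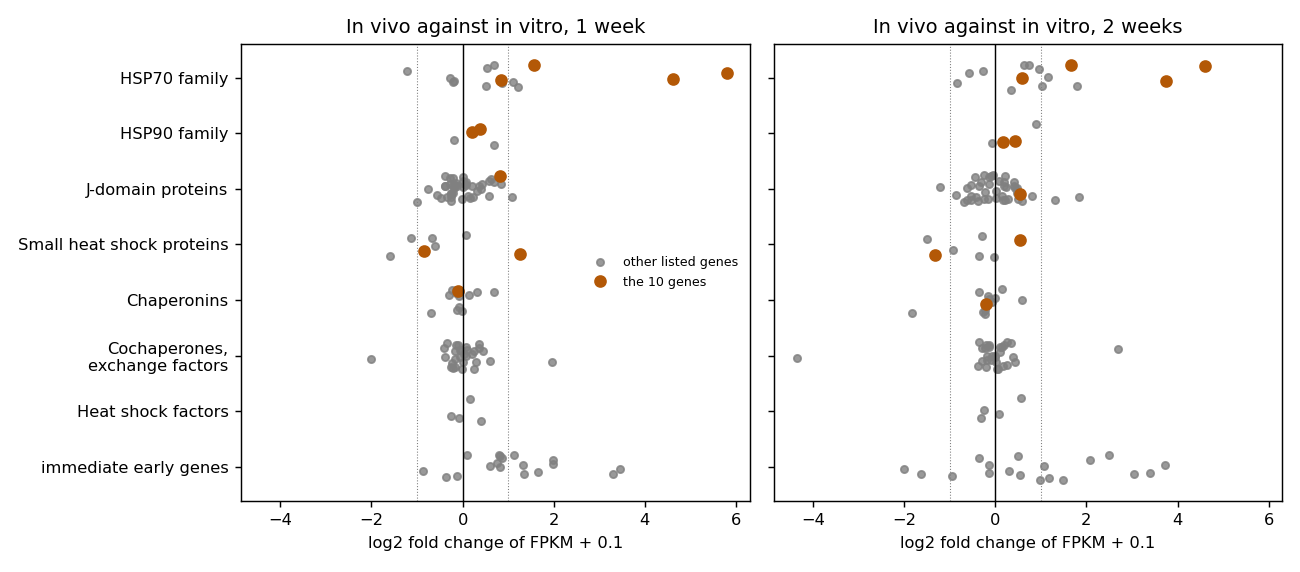
Log2 fold change of FPKM + 0.1, *in vivo* over *in vitro*, at 1 and 2 weeks for every tested gene of the 7 chaperone lists and of the immediate early genes, with the 10 genes in brown, other genes in grey and dotted lines at the fold limit. Points are spread vertically at random within a list for sight. The HSP70 list holds both the 2 largest values, *Hspa1a* and *Hspa1b*, and genes below 0 such as *Hspa9* (-1.21 at 1 week).

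Immediate early genes are transcribed within minutes of a stimulus, injury or tissue digestion, and those called were mostly higher *in vivo*. All 18 listed were tested, and 8 of them were higher and 0 lower in the hearts at 1 week, against the 7.79% and 5.07% of all genes. At 2 weeks 8 again were higher, while *Egr3* and *Btg2* were lower, against 9.02% and 8.05%. Under quantile normalization, and likewise in unscaled libraries, the counts were 6 higher and 1 lower at 1 week and 6 and 3 at 2 weeks. The counts of all genes under these scalings are given above. Their summed FPKM was 5317 to 8105 *in vivo* and 2347 to 3766 *in vitro*. *Jun*, a subunit of the AP-1 factor, was at 605 and 667 FPKM *in vivo* against 56.5 and 59.3 FPKM *in vitro* at 1 week and at 908 and 845 FPKM against 72.0 and 60.6 FPKM at 2 weeks. *Fos*, its partner, had log2 fold changes of 1.98 and 3.04. Others did not follow, such as *Egr2*, at 0.11 and -0.35. Within the *in vivo* pair at 1 week, the library with the lower *Hspa1a* value, 150 FPKM, had the higher *Jun* value. It had the lower *Nr4a1* value, 159 against 196 FPKM, and other immediate early genes went either way in this pair. The part of the immediate early response in the heat shock protein results was not tested, and the enzymatic digestion of the heart cannot be told apart from the place.

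Markers of other cells also differed between the arms. On the deposited scaling their counts stand against 7.79% higher and 5.07% lower of all genes at 1 week and 9.02% and 8.05% at 2 weeks. The counts of all genes under the other scalings are given above. Of 6 endothelial markers 5 were higher *in vivo* at 1 week and 2 at 2 weeks, with a summed FPKM of 63.8 to 80.5 *in vivo* and 19.8 to 47.7 *in vitro* (1 at 2 weeks in unscaled libraries). Of 8 macrophage markers 0 were higher and 1 lower at 1 week, and 1 was higher and 4 lower at 2 weeks, with sums of 1767 to 2813 and 4462 to 5586. The lower macrophage markers numbered 2 and 5 under quantile normalization and 2 and 6 in unscaled libraries. Of the 8 fibroblast markers 5 were higher at 1 week and 6 at 2 weeks, with sums of 10064 to 13287 and 2148 to 3470. Under quantile normalization 4 were higher at each week, and in unscaled libraries 4 were higher and 1 lower at 1 week and 6 higher at 2 weeks. Of the 6 skeletal muscle markers 2 were tested, with 0 called at 1 week and 2 lower at 2 weeks, sums of 2.66 to 5.48 and 9.94 to 40.6, and *Myod1* and *Myog* at 0 in all 4 *in vitro* libraries. Their part in the results was not tested.

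The genes whose pattern was most like that of *Hspa1a*, by Pearson's r of log2 values over the 8 libraries among 13095 protein-coding genes, were *Aspn*, *Il33* and *Ly6c1*, each at r = 0.997. *Aspn*, which encodes the matrix protein asporin, was at 425 to 510 FPKM *in vivo* and 6.34 to 20.5 FPKM *in vitro*. For *Cryab* they were *Ctns* (r = 0.998), *Dpysl5* (r = 0.996) and *Fam32a* (r = 0.995), of which *Ctns*, the lysosomal cystine exporter, was at 4.83 to 5.54 FPKM *in vivo* and 8.64 to 11.6 FPKM *in vitro*. The libraries fall into an *in vivo* and an *in vitro* cluster, so these r values mainly restate the difference between the arms.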

How the data were processed

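The authors deposited 1 table of FPKM for 8 libraries, made by their sequencing provider (SMARTer mRNA libraries per the labels). The submitters' processing notes name CASAVA, HISAT2 2.0.5 and mm10, and the counting tool, its strand setting and its treatment of fragments that match several genes are not given in the sources used here. The deposited FPKM times gene length gave whole fragments for 100% of values (tolerance 0.1). The library size behind the FPKM was 0.863 to 0.915 times the fragments *in vivo* and 1.09 to 1.15 times *in vitro*, so values were already scaled between libraries. Sample columns matched to no sample numbered 0. Coordinates are those of the table on mm10, and all 10 genes had the same start and end in GENCODE vM21 of GRCm38.

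Log2(FPKM + 0.1) of genes that reached an FPKM of 0.5 in 2 or more libraries was fitted with limma 3.58.1 (R 4.3.3, intensity trend, moderated variance) over all 8 libraries in 4 groups, with Benjamini-Hochberg adjustment over 15708 genes. The pseudocount understates the fold of low genes. The fitting code was run on simulated data with a fixed spread and few changed genes. Such a run does not show how well the fits hold for these libraries. The 10 genes, the lists and the tests were chosen with earlier results of these data known. Besides the 10 genes, text names from each chaperone list and week the 2 called genes with the largest change, *Hsf1*, *Hsf2*, *Hspe1*, *Hspb2*, *Hspa5*, *Hspa9*, *Hsp90b1* and *Trap1*, the 3 protein-coding genes most correlated with *Hspa1a* and with *Cryab*, and marker genes beside a result. The alternatives were other pseudocounts, filters, scalings and thresholds, limma voom on the recovered fragments, no trend, a replicate block, only the libraries compared, each library left out, and the sum of *Hspa1a* and *Hspa1b*.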

Additional observations from a re-analysis of the deposited data

How the results depend on the processing

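With 2 libraries per group, the spread rests on few samples. The counts of heat shock proteins called *in vivo* against *in vitro* were 4 at 1 week and 4 at 2 weeks under all pseudocounts, filters, scalings and fits tried and with each library left out, and became 8 and 7 with no fold limit. At 1 week, quantile normalization and unscaled libraries each put *Cryab* (lower) in the place of *Hspb1*. For 2 weeks against 1 week *in vitro* the count was 1, with 4 under no fold limit, 0 under pseudocount 1, no filter, no intensity trend or only the libraries compared, and 0 to 1 with each library left out (0 without either *in vitro* library of either week or either *in vivo* library at 2 weeks). The last-named fit could not be run for the difference between the weeks, which uses all libraries. Of 1000 values for single genes under an alternative, 949 kept their direction and side of the thresholds.

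Libraries were not paired by replicate number, since those sharing a number deviated together with correlations of only -0.022 to -0.011. A replicate block left the counts at 4 and 4 *in vivo* against *in vitro*, 0 for the difference between the weeks and 0 between the weeks *in vivo*, and gave 0 between the weeks *in vitro*.

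Values that took the other sign were 25 of the 1000, and the cause was not tested. Under quantile normalization these were, *in vivo* against *in vitro*, *Hsp90aa1* at -0.092 and -0.025 and *Hsp90ab1* at -0.26 (1 week); for the difference between the weeks, *Hsp90aa1* at 0.067; *in vitro* between weeks, *Hspa8* at -0.22 and *Hsp90ab1* at -0.33; and *in vivo* between weeks, *Hspa1a* at -0.070, *Hspa1b* at -0.049 and *Hsp90ab1* at -0.046. Without the scaling between libraries they were *Hsp90aa1* at -0.13 and -0.15 and, *in vitro* between weeks, *Hsp90ab1* at -0.030. With a library left out, the ranges that crossed 0 were, for the difference between the weeks, *Hsph1* -0.039 to 0.20, *Hsp90aa1* -0.11 to 0.054, *Hspd1* -0.24 to 0.020, *in vitro* between weeks *Hsp90ab1* -0.011 to 0.053 and *in vivo* between weeks *Hspa1a* -0.18 to 0.49, *Hspa1b* -0.30 to 0.50, *Hspb1* -0.055 to 0.33, *Cryab* -0.16 to 0.028.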
